A study of Arabidopsis thaliana with 27 samples.

Results

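The chloroplast genes rps4, rps19 and matK each encode a protein of the plastid's own gene expression machinery. Each was measured by 1 probe set that names no other gene (245009_at for rps4, 244986_at for rps19 and 245048_at for matK). They were chosen by these names, and for study because of their levels on these same arrays, so their levels and differences are given as a description, with errors and without p-values. They are 3 of the 69 plastid-encoded genes with a probe set of their own, among 22746 probe sets that are not array controls. A further probe set that names rps4 together with locus AT2G07734 was left out, and whether its rps4 is the plastid gene was not checked.

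The series profiled RNA of laser-dissected embryo tissues of Arabidopsis thaliana, all of the wild-type accession Col-0, on Affymetrix ATH1 arrays. These arrays carry short probes in sets, and the deposited values are probe set intensities on a linear scale. The globular stage was captured as apical and basal tissue, the heart stage as cotyledon pole and root pole, and the torpedo stage as cotyledon, root, meristem, apical and basal tissue. 7 of the 9 groups held 3 arrays, and torpedo cotyledon and torpedo root held 2 each. In 2 further arrays the title and the tissue description name opposite torpedo tissues, and these entered no comparison. Plants were grown in compost in a growth room, and for globular apical 1 the labels give a higher humidity than for the others, and add a temperature and a cold stratification. The labels tie no capture to a plant or embryo and do not say how cells were picked or how the RNA was primed and amplified, so errors measure only the spread between arrays, which may be technical.

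Plastids keep a small genome of their own, descended from that of a cyanobacterium. Its genes are transcribed by a plastid-encoded polymerase and by nuclear-encoded phage-type polymerases, and its messages are translated on bacterial-type ribosomes whose proteins come partly from the plastid and partly from the nucleus. The rps4 and rps19 genes encode proteins of the small ribosomal subunit, and matK encodes the plastid's intron maturase, which takes part in splicing group II introns. In the embryo, plastids green and build photosynthetic membranes around the heart and torpedo stages. In the plastid gene order of the RefSeq table (assembly TAIR10.1), rps4 lies beside trnS, rps19 lies between the ribosomal protein genes rpl22 and rpl2, and matK lies inside trnK, the lysine tRNA gene. Their coding lengths are 606 bases for rps4, 279 for rps19 and 1515 for matK.

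The arrays differed in quality, and this touches every value below. On 4 of the 25 arrays the median correlation with the other arrays was under 0.4, namely torpedo root 1 and 3, torpedo meristem 1 and heart cotyledon 2. The 9 arrays of torpedo apical, basal and meristem tissue were deposited unrounded and the 16 others with 1 decimal, so the form of the file and these tissues cannot be told apart. The geometric mean of the hybridization controls ran from 379.8 to 1988 (median 500.1) on the unrounded arrays, against 581.6 to 71930 (median 2721) on the others. Of 8 listed embryo markers only BBM was measured, from 1.11 to 2851, and it reached 50 on 11 arrays. Of 9 listed endosperm markers 2 were measured, and their summed intensity ran from 8.52 to 175 on the unrounded arrays, against 20.6 to 189.4 on the others. Of 7 listed seed coat markers only BAN was measured, at 1.72 to 24.5 on the unrounded arrays, against 5.1 to 444.6 on the others. With so few markers the tissue labels could hardly be checked, and in captured tissue fewer plastid-rich cells and less plastid RNA per cell cannot be told apart.

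The rps4 message separated the torpedo meristem, apical and basal captures from the other grouped arrays. In the globular stage, intensities were 166.2, 508.6 and 72.3 in apical tissue and 14.7, 738.5 and 10.1 in basal tissue. In the heart stage they were 542.9, 117.5 and 89.0 in the cotyledon pole and 135.1, 469.6 and 161.9 in the root pole. In the torpedo stage the captures lay at opposite ends of the scale. Cotyledon and root tissue held the low end, with 107.6 and 19.2 in cotyledon and 30.3 and 11.3 in root. Torpedo meristem gave 3425, 2547 and 6181, torpedo apical 3944, 3465 and 3818, and torpedo basal 4268, 6735 and 2383. The lowest of these 9 arrays, torpedo basal 6, was 3.23 times the highest of the 16 others, globular basal 2. Of the 20890 probe sets tested, 0.0287% were higher on every one of the 9 arrays than on all 16 others, and rps4 was the only such gene among the 69 plastid genes. Since rps4 was picked for its levels on these arrays, these counts are background only. The split is also that between unrounded and 1-decimal files. The array titled torpedo cotyledon 2, a 1-decimal file left out for its labels, held 2815.8, inside the range of the 9 arrays.

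**Figure D1:**
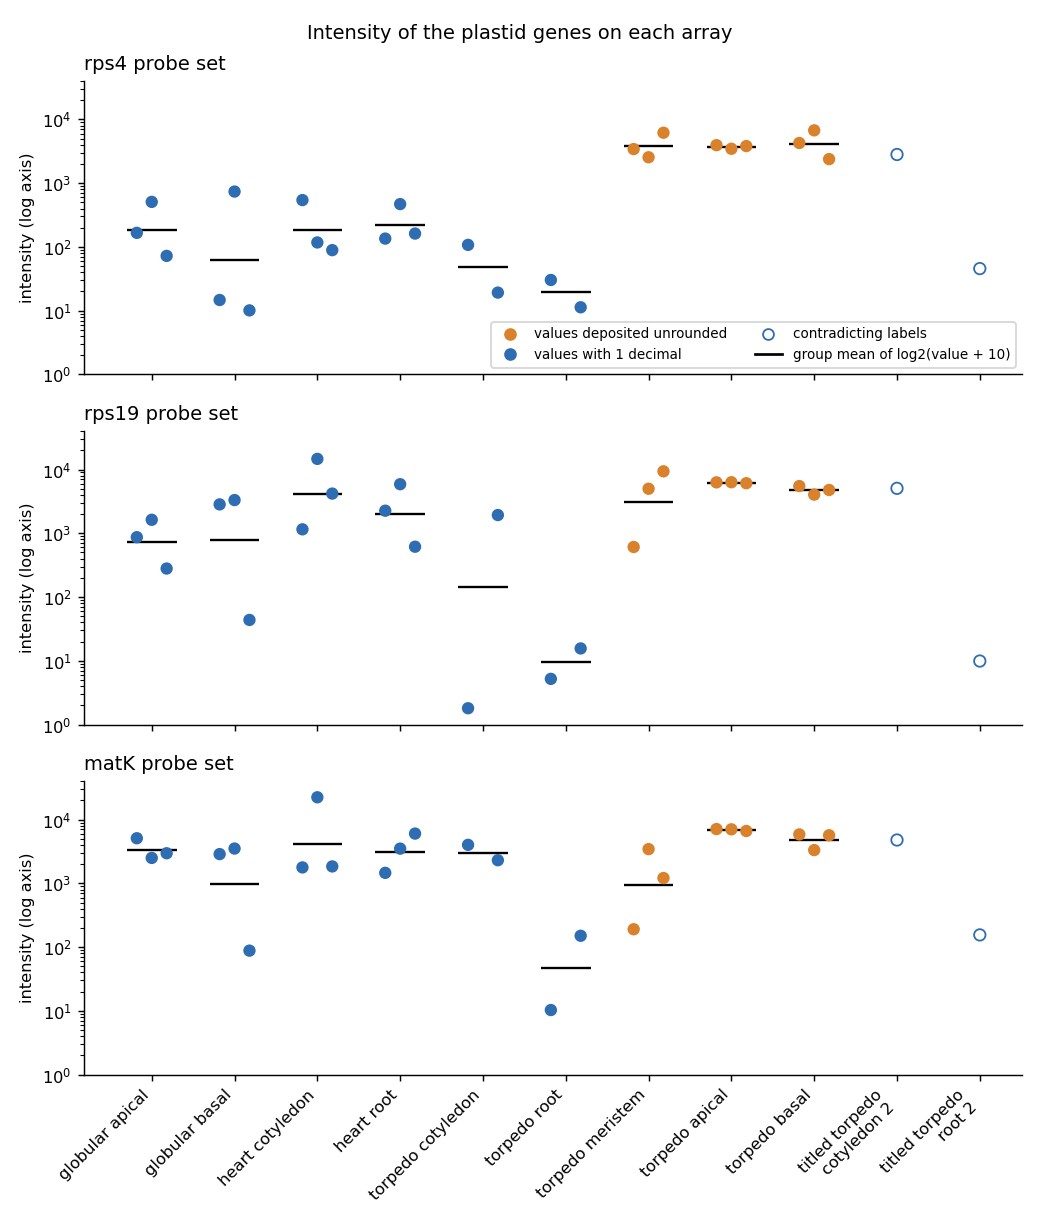
Intensity (log axis) of the rps4, rps19 and matK probe sets on each array, 1 point per array, with each group's mean taken as log2(intensity + 10) as a bar. Orange points are the 9 arrays deposited unrounded, blue points those with 1 decimal, and open circles the 2 arrays whose labels contradict each other. For rps4 the orange points, at 2383 to 6735, all lie above the filled blue points, at 10.1 to 738.5, whereas for rps19 and matK the colours overlap.

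In order of mean log2 level, rps4 stood highest in torpedo basal (4462 ± 2183 as intensity), then meristem (4051 ± 1896) and apical (3742 ± 249, SD, n = 3 each). After a step of 4.03 on the log2 scale came heart root (256 ± 186), globular apical (249 ± 230), heart cotyledon (250 ± 254) and globular basal (254 ± 419, n = 3 each). Torpedo cotyledon (63.4 ± 62.5) and torpedo root (20.8 ± 13.4, n = 2 each) were lowest. Only that 1 step, from torpedo apical to heart root, separated neighbours in the order, and every other pair of neighbours overlapped. On the log2 scale the spread was least in torpedo apical tissue (SD 0.097) and greatest in globular basal tissue (SD 2.93), where 1 array held 738.5 and the others under 15.

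For rps19 the torpedo root had the lowest mean, and some heart arrays reached the level of the torpedo apical and basal arrays. Globular apical tissue gave 867.5, 1627 and 279.7 and globular basal tissue 2839, 3317 and 43.7. Heart cotyledon gave 1153, 14680 and 4191, which includes the highest rps19 value of all arrays, and heart root gave 2259, 5881 and 615.2. The torpedo cotyledon arrays lay far apart, at 1.8 and 1930.5, and the torpedo root arrays were both low, at 5.2 and 15.6. Torpedo meristem gave 609.0, 4992 and 9369. Torpedo apical arrays were the most alike, at 6287, 6316 and 6099, and stood above torpedo basal at 5504, 4040 and 4777. Between neighbours in the order of mean log2 levels, only torpedo apical (6234 ± 118) and torpedo basal (4774 ± 732, SD, n = 3 each) did not overlap, by a log2 step of 0.40.

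The mean of matK was also lowest in torpedo root. Globular apical tissue gave 5102, 2506 and 2968, and globular basal tissue gave 2877, 3517 and 88.0. Heart cotyledon gave 1779, 22404 and 1844.5 and heart root 1462, 3506 and 6036. Unlike rps19, matK was bright on both torpedo cotyledon arrays, at 4020 and 2307, against 10.3 and 150.6 in torpedo root. Torpedo meristem arrays, at 190.6, 3444 and 1213, were lower than torpedo apical arrays, at 7109, 7043 and 6631, and overlapped torpedo basal arrays, at 5856, 3325 and 5685. The order by mean log2 level began with torpedo apical (6928 ± 259) and torpedo basal (4955 ± 1415, SD, n = 3 each) and ended with torpedo meristem (1616 ± 1664, n = 3) and torpedo root (80.5 ± 99.2, n = 2). Neighbours in this order did not overlap at the step from torpedo apical to basal, 0.53 on the log2 scale, and at the step from torpedo meristem to torpedo root, 4.05.

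Across the 25 arrays the highest intensity was 667 times the lowest for rps4, 8155 times for rps19 and 2175 times for matK. The SD between arrays of 1 group, pooled over groups on the log2 scale, was 1.38 for rps4, 2.15 for rps19 and 1.62 for matK. A value under 50, the floor used for testing, was seen on 5 arrays for rps4, 4 for rps19 and 1 for matK, and all 3 genes passed the filter. Heart cotyledon 2 held the highest rps19 and matK of all arrays while its rps4, at 117.5, lay inside the range of the heart arrays. Globular basal 3 held the lowest value of all 3 genes among the globular and heart arrays.

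Differences between groups were fitted across all 20890 tested probe sets on log2(intensity + 10) with limma, and a probe set was called at a Benjamini-Hochberg adjusted p under 0.05. The scale understates the change of dim probe sets. In the globular embryo, apical minus basal was 1.45 (SE 1.08) for rps4, -0.10 (SE 1.59) for rps19 and 1.75 (SE 1.38) for matK, and for each gene the arrays of the groups overlapped. 0 of the 3 genes were called, where 0% of all tested probe sets were, 561 of them having an unadjusted limma p under 0.05, and the median difference of all was -0.06. Without globular basal 3 the difference was 0.53 for rps4, -2.04 for rps19 and 0.079 for matK, and without globular basal 2 it was 3.14, 0.93 and 2.66 for the same genes in that order.

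In the heart embryo, cotyledon minus root pole was -0.26 (SE 1.08) for rps4, 1.03 (SE 1.59) for rps19 and 0.42 (SE 1.38) for matK. The groups overlapped for each gene, 0 of 3 were called against 0.00957% of all tested probe sets, and the median of all was 0.29. The rps19 and matK values rested on heart cotyledon 2, without which they were 0.12 and -0.79. For rps4 the difference was -1.03 without heart cotyledon 1 and 0.28 without heart root 2.

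Between torpedo cotyledon and torpedo root, the 3 genes stood on the same side, higher in cotyledon. The difference was 1.00 (SE 1.32) for rps4, 2.94 (SE 1.95) for rps19 and 5.74 (SE 1.69) for matK, with a median of -0.35 over all tested probe sets. The rps4 and rps19 differences rest mostly on values under the intensity floor used for testing. For rps4 only torpedo cotyledon 1 (107.6) lay above it, against 19.2 on torpedo cotyledon 3 and 30.3 and 11.3 in root. For rps19 only torpedo cotyledon 3 (1930.5) did, against 1.8 on torpedo cotyledon 1 and 5.2 and 15.6 in root. For matK only torpedo root 1 (10.3) lay under the floor. Only for matK did the arrays not overlap, 1 gene of 3, where 10.4% of tested probe sets were higher on both cotyledon arrays than on both root arrays. 0 of 3 genes were called, against 0.00957% of all. The rps19 difference was 6.62 without torpedo cotyledon 1 and -0.74 without torpedo cotyledon 3, and rps4 was -0.0048 without torpedo cotyledon 1 and 2.01 without torpedo cotyledon 3. For matK it remained between 4.25 and 7.23 whichever of the 4 arrays was left out, although both torpedo root arrays correlated poorly with the rest. The log2 ratio of the actin 3' to 5' control probe sets, a sign of RNA integrity and amplification, was 3.15 and 2.90 on the cotyledon arrays, against -1.67 and 0.28 on the root arrays. The same ratio for GAPDH did not separate them, at 1.42 and 2.55 on the cotyledon arrays, against 1.10 and 4.07 on the root arrays. The summed endosperm markers were 78.5 and 37.9 on the cotyledon arrays, against 150 and 139.4 on the root arrays. The part of these measures in the difference was not tested.

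Torpedo apical and basal tissue were close in all 3 genes. Apical minus basal was -0.13 (SE 1.08) for rps4, 0.40 (SE 1.59) for rps19 and 0.53 (SE 1.38) for matK, beside a median of -0.14. For rps19 and matK every apical array lay above every basal array, 2 genes of 3, as did 4.94% of tested probe sets. 0 of 3 genes were called, against 0.091% of all. The standard errors are wide beside the spread of these arrays, since the fit shares 1 estimate of spread over the 9 groups.

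Torpedo meristem differed from the mean of torpedo apical and basal by -0.05 (SE 0.93) for rps4, -0.82 (SE 1.38) for rps19 and -2.61 (SE 1.19) for matK, where the median of all tested probe sets was 0.47. The groups overlapped for each gene and 0 of 3 were called, against 0.168% of all. Meristem 1, an array of low correlation, was lowest for rps19 and matK. Without it rps19 was 0.33 and matK -1.49. Meristem 1 and 3, the arrays lowest in matK, had summed endosperm markers of 165 and 175 and actin log2 ratios of -0.28 and 0.28. Meristem 2, the highest in matK, had 22.4 and 4.85. The apical and basal arrays ran from 8.52 to 51.3 for these markers and from 2.48 to 5.68 for the actin ratio. The GAPDH log2 ratio ran otherwise than actin, at 2.50 and 2.98 on meristem 1 and 3 and 1.54 on meristem 2. On the apical and basal arrays it was 2.78 to 4.61. The part of these measures in the matK difference was not tested.

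**Figure D2:**
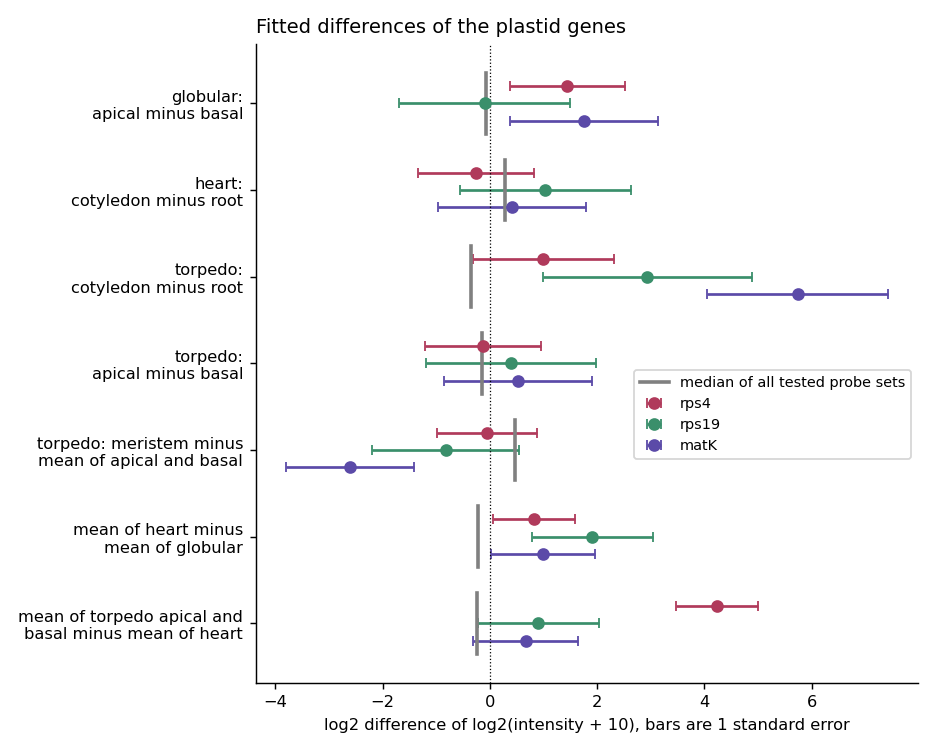
Fitted log2 difference (horizontal axis, on log2(intensity + 10)) of rps4, rps19 and matK in each of the 7 comparisons, with bars of 1 standard error, and the median of all tested probe sets as a grey tick. The rps4 point for torpedo minus heart, at 4.23, lies furthest from its grey tick relative to its bar, and matK in torpedo cotyledon minus root, at 5.74, is the largest difference drawn.

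Across stages, the mean of the heart groups minus the mean of the globular groups was 0.82 (SE 0.76) for rps4, 1.91 (SE 1.12) for rps19 and 0.99 (SE 0.97) for matK, and all 3 lay above the median of -0.23. The arrays overlapped and 0 of 3 genes were called, against 0.0718% of all tested probe sets. Without globular basal 3 the differences were 0.36, 0.94 and 0.15 for the genes in that order.

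The mean of torpedo apical and basal minus the mean of the heart groups, which shares its heart arrays with the preceding comparison, was 4.23 (SE 0.76) for rps4, 0.91 (SE 1.12) for rps19 and 0.67 (SE 0.97) for matK, beside a median of -0.24. 1 of 3 genes, rps4, was called, where 1.26% of all tested probe sets were, and the same gene was the 1 of 3 whose torpedo arrays all lay above its heart arrays, where 0.977% of all did. These levels belong to those by which the genes were picked, so the shares are given as background only. The rps4 difference stayed between 3.99 and 4.61 when each of the 12 arrays was left out. It lies across the split between unrounded and 1-decimal files, and the hybridization controls, the actin ratio and the median level of plastid probe sets moved with it. That median, on the log2 scale, was 6.98 to 8.11 on the torpedo apical and basal arrays, against 6.17 to 6.76 on the heart arrays, without overlap. Over all unrounded arrays, meristem included, it was 6.59 to 8.11, against 6.17 to 6.76 on the others. The actin log2 ratio was 2.48 to 5.68 on the torpedo apical and basal arrays, against -0.75 to 4.14 on the heart arrays. For GAPDH the torpedo range lay mostly inside that of the heart arrays, at 2.78 to 4.61, against 0.77 to 4.74. Within groups, over the 25 arrays, rps4 had a Pearson r of 0.49 with the array's median correlation, -0.32 with the hybridization controls and 0.13 with the actin ratio. These are descriptions only, since both values of a pair are read from the same array. The part of these measures in the result was not tested.

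The other plastid-encoded genes of the expression list were ribosomal proteins, RNA polymerase subunits and clpP, which encodes a protease subunit and not a part of that machinery. Of 18 measured genes besides the 3, 0 were called in 6 of the comparisons, where 0% to 0.168% of all tested probe sets were. In torpedo minus heart 2 of 18 were called, both higher in torpedo, where 1.26% of all tested probe sets were called. 13 of 18 lay above 0 with a median of 0.76, beside a median of -0.24 over all. One of the called genes was rpl22, the ribosomal protein gene next to rps19, at 2.99 (SE 0.54, limma adjusted p = 0.00525). On the log2(intensity + 10) scale rpl22 was at 8.28, 8.10 and 7.86 in torpedo apical and 6.87, 9.58 and 7.26 in torpedo basal. It was at 4.53, 4.04 and 5.79 in heart cotyledon and 5.13, 4.87 and 5.62 in heart root, all under the intensity floor of 50. The stages did not overlap, where 0.977% of all tested probe sets lay higher on every torpedo array. With a pseudocount of 50 the rpl22 difference was 2.03. The other was rpl16, further along the same ribosomal protein cluster, at 2.79 (SE 0.69, limma adjusted p = 0.0401), and it lost the call under 10 of 24 other settings. For rps19, the neighbour of rpl22, the same difference was 0.91 (SE 1.12), and the difference between the genes was not tested.

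**Figure D3:**
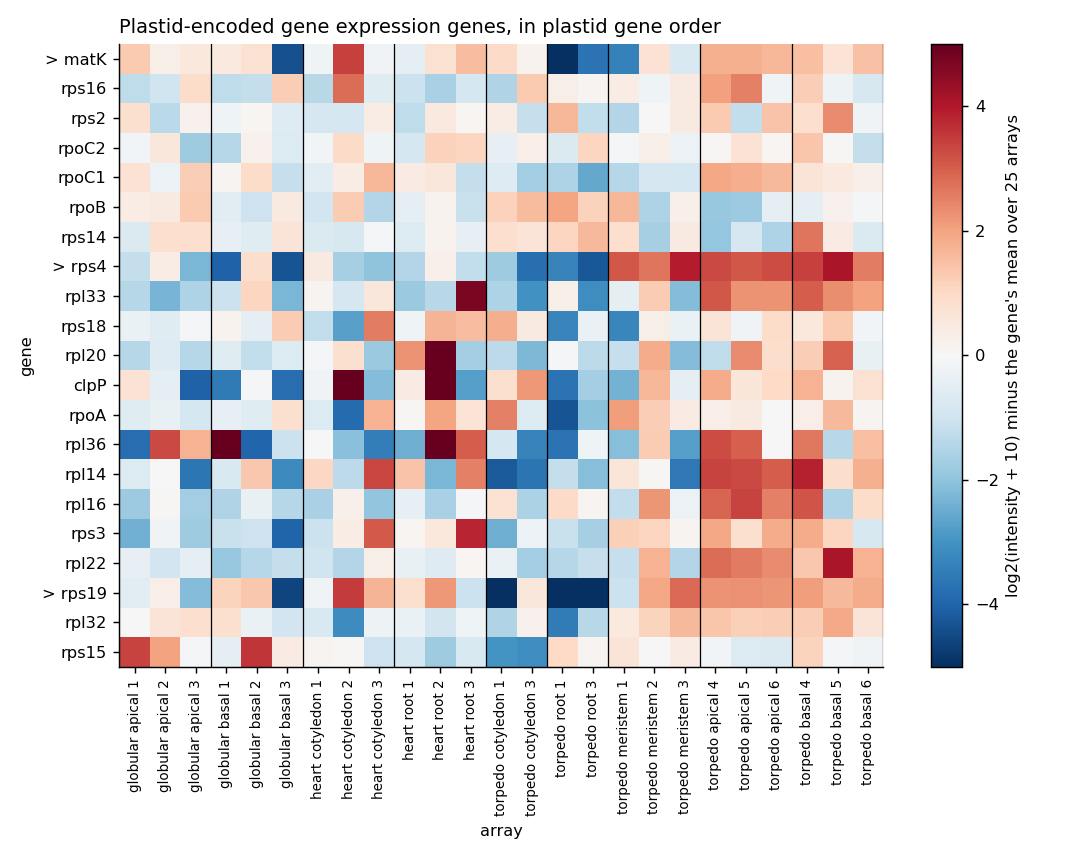
Levels of rps4, rps19, matK and the 18 other measured plastid genes of the expression list (rows, in plastid gene order) on the 25 arrays (columns, by group), coloured by log2(intensity + 10) minus the gene's mean over the arrays, with the scale ending at 5 in each direction. The rps4 row is dark red on the 9 torpedo meristem, apical and basal arrays and pale or blue on the rest. Both matK and rps19 are blue on the torpedo root arrays and on globular basal 3. So are rps19 on torpedo cotyledon 1 and matK on torpedo meristem 1.

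The RNA polymerase subunit genes rpoA, rpoB, rpoC1 and rpoC2 showed differences of 0.49, -0.32, 0.92 and -0.14 for torpedo minus heart, and none was called. In torpedo meristem minus the mean of apical and basal, 4 of the 18 genes lay above 0. Their median was -1.26, beside 0.47 over all tested probe sets, and rpl14, another ribosomal protein gene, stood at -3.69 without a call. The medians of the 18 genes in the other comparisons were 0.22 for the globular stage, -0.33 for the heart stage, -0.20 for torpedo cotyledon minus root, 0.13 for torpedo apical minus basal and 0.26 for heart minus globular. Over all tested probe sets the medians were -0.06, 0.29, -0.35, -0.14 and -0.23 for the same comparisons in that order.

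Photosynthesis genes of the plastid gave a comparison group of 46 tested genes. 0 were called in 6 of the comparisons, where 0% to 0.168% of all tested probe sets were. In torpedo minus heart 4 were called higher and 1 lower, where 1.26% of all tested probe sets were called. 31 lay above 0 with a median of 1.09, beside a median of -0.24 over all. The 3 with the smallest adjusted p were psaA, which encodes a core protein of photosystem I, at -2.61 (SE 0.52, limma adjusted p = 0.0126), ndhD, a subunit of the chloroplast NADH dehydrogenase-like complex, at 3.05 (SE 0.61, limma adjusted p = 0.013), and psbF, a subunit of cytochrome b559 in photosystem II, at 5.37 (SE 1.22, limma adjusted p = 0.0269). The calls of ndhD and psaA held under all 24 other settings, whereas psbF held under 14.

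**Figure D4:**
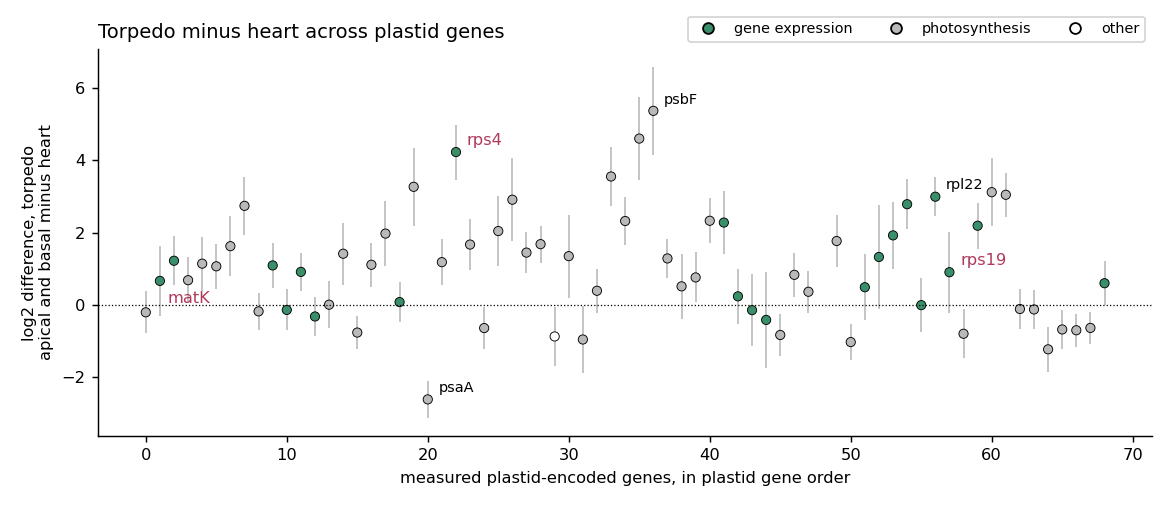
Log2 difference, mean of torpedo apical and basal minus mean of heart, for each measured plastid gene in plastid gene order (horizontal axis), with bars of 1 standard error. Green points are expression genes, grey points photosynthesis genes and the white point another gene. The rps4 point stands at 4.23, below psbF at 5.37, while rps19 and matK stand at 0.91 and 0.67 among many genes of like difference.

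The nuclear genes of plastid gene expression were thinly covered. Of 20 listed nuclear genes for plastid transcription, polymerases and their partners, 1 had a probe set of its own (AT5G15700). Of 8 listed intron splicing factors 2 had one (CFM3A and CAF1, which act on group II introns), and of 34 listed plastid ribosomal proteins 9. None of the 12 was called in any comparison, where 0% to 1.26% of all tested probe sets were. Torpedo minus heart was -0.31 for AT5G15700, -0.55 for CFM3A and 0.45 for CAF1. In it 6 of the 9 ribosomal protein genes lay above 0 with a median of 1.01, beside -0.24 over all tested probe sets. In torpedo cotyledon minus root all 9 ribosomal protein genes lay above 0 with a median of 2.30, beside -0.35 over all. This was the side on which rps4, rps19 and matK also lay. In heart cotyledon minus root 2 of 9 lay above 0 with a median of -1.47, beside 0.29 over all. In torpedo meristem minus the mean of apical and basal 0 of 9 lay above 0. Their median was -1.11, beside 0.47 over all.

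Over the arrays, the log2 levels of rps19 and matK had a Pearson r of 0.69 and a Spearman rho of 0.56 over 25 arrays, 0.76 without the 2 arrays farthest from the median of rps19, and 0.40 over the 21 arrays without those of low correlation. It was 0.69 on the 16 arrays with 1 decimal, 0.78 on the 9 unrounded arrays and 0.54 within groups. Since rps4 fell into separate ranges on the 2 kinds of file, its correlations are given within each. With rps19 it was 0.47 on the 16 arrays and 0.20 on the 9, and with matK 0.52 and -0.13 for the same arrays. Which pair was most alike depended on the arrays and the measure. Over the 21 arrays without those of low correlation, where both kinds of file enter, r was 0.62 for rps4 with rps19 and 0.49 for rps4 with matK, both above the 0.40 of rps19 with matK. The points share their array, its labelling and its scaling, so these values are descriptions of 3 pairs.

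**Figure D5:**
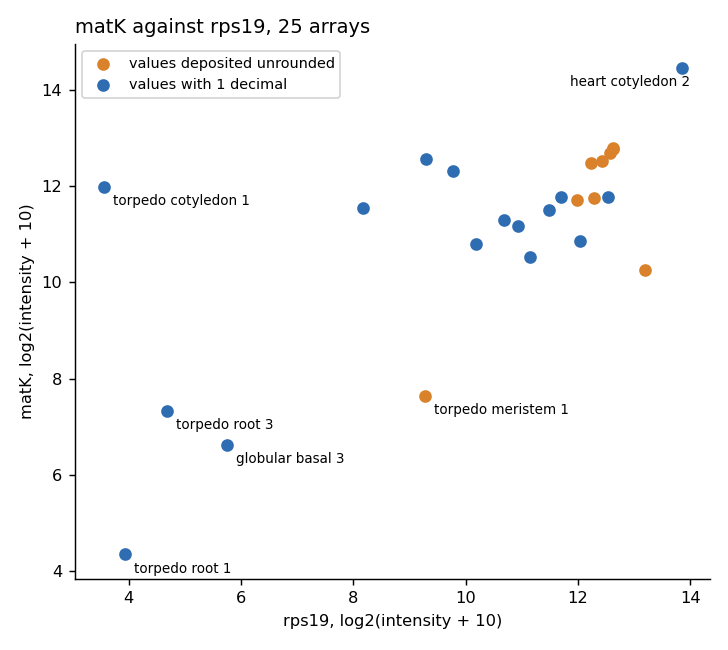
The log2(intensity + 10) level of matK (vertical axis) against that of rps19 (horizontal axis), 1 point per array over 25 arrays, orange for unrounded and blue for 1-decimal files. The torpedo root arrays and globular basal 3 are low for both genes and heart cotyledon 2 is high for both, while torpedo cotyledon 1 is low for rps19 only.

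The 5 other single-gene probe sets most like each gene were taken by Pearson correlation of log2 levels over the 25 arrays, among 12319 candidates. For rps4 they were AT1G17130 and AT3G10040 (0.76 each), AT4G02480 (0.75), AT5G35910 (0.74) and AT3G09360 (0.73), none of them plastid-encoded, and these values carry the gap in rps4 between the 2 kinds of file. For rps19 they were nad4, which encodes a subunit of mitochondrial complex I, at 0.72, then matK at 0.69 and AT3G60340, AT5G49210 and AT5G14440 at 0.66. For matK they were AT5G19760 (0.70), rps19 and AT3G06700 (0.69 each), and AT3G56340 and the histone gene HTB4 (0.66 each). Within groups, the correlations with these 5 probe sets were weaker, from -0.10 to 0.33 for rps4. They ran from 0.27 to 0.71 for rps19, highest with nad4, and from 0.20 to 0.63 for matK. Spearman rho over the arrays was 0.70 to 0.77 for rps4, 0.47 to 0.74 for rps19 and 0.26 to 0.56 for matK.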

How the data were processed

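Per the submitters' processing notes, the authors made the deposited intensities with MAS5; no version is named there. The 27 arrays hold linear values whose mean, trimmed by 2% on either side, is close to 100. Probe-level files were not analysed here. The number of arrays limits precision, as does their quality. Groups came from the titles.

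A pseudocount of 10 preceded the log2 step. The model of limma 3.58.1 (R 4.3.3; lmFit, then eBayes with its intensity trend) covered 25 arrays in 9 groups. It left out 64 control probe sets and kept probe sets that reached 50 on 2 or more arrays. In each of 7 comparisons, 2-sided p-values were adjusted by Benjamini and Hochberg's method. The fit was tested on simulated data. Named are the 3 genes, the 5 probe sets most like each, and list genes past the threshold, at most 3 per comparison by adjusted p. Other genes of the plastid expression list serve as examples, and the nuclear genes named with values were picked after these were seen. The genes and lists were chosen with earlier results of these data known. Genes come from a platform table updated through RefSeq names (TAIR10.1, 13436 of 13513 single-gene probe sets matched). Coordinates are left out, since the sources name no build.

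Alternatives were quantile normalization, median centring, pseudocounts of 1 and 50, no filter, a floor of 100, no trend, array weights, only the groups compared, a replicate block, the 2 contradicting arrays added by title or by tissue description, arrays of low correlation left out, and each array left out in turn.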

Additional observations from a re-analysis of the deposited data

Results flagged for a closer look

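The array titled torpedo cotyledon 2, whose tissue description names the root, belongs to no group of the comparisons, and on it all 3 genes were brighter than on every torpedo cotyledon and root array. Its rps4 intensity was 2815.8, against at most 107.6 on those 4 arrays. Its rps19 was 5067.1, against at most 1930.5, and its matK was 4788.8, against at most 4020. Its rps4 value lies within the range of the torpedo meristem, apical and basal arrays (2383 to 6735), although its file, unlike theirs, holds values with 1 decimal.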

How the results depend on the processing

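Of 429 refitted differences of the 3 genes, 421 moved by no more than the gene's SD between arrays of 1 group, 6 moved further and 2 turned. A turn was counted only where the first difference exceeded its standard error, so smaller differences that changed sign are not among the 2. In the heart comparison, for example, matK went from 0.42 to -0.79 without arrays of low correlation. With the contradicting arrays added by title, rps4 in torpedo cotyledon minus root was 2.56. With them added by tissue description it was -1.22, while rps19 was -0.71 and matK 2.21. Leaving out 1 array gave 0.53 to 3.14 for rps4 and 0.079 to 2.66 for matK in the globular comparison, and -0.74 to 6.62 for rps19 in torpedo cotyledon minus root, where -0.74 came without torpedo cotyledon 3. The rps4 difference for torpedo minus heart was 3.95 to 4.61 over 24 alternatives, which refit the arrays that the genes were chosen on.

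Counts of called probe sets also moved. In the globular comparison, 0 became 1 with a pseudocount of 50 and with only the groups compared, and 0 to 2 without 1 array. In the heart comparison, 2 became 6 with array weights and without arrays of low correlation, 0 with only the groups compared, 1 and 0 with the contradicting arrays by title and by tissue description, and 0 to 50 without 1 array. In torpedo cotyledon minus root, 2 became 4 with quantile normalization, 1 and 109 with pseudocounts of 1 and 50, 5 without the trend, 0 with array weights, 16 with only the groups compared, 59 and 0 with the contradicting arrays by title and by tissue description, and 0 to 86 without 1 array. In torpedo apical minus basal, 19 became 9 with quantile normalization, 5 with a pseudocount of 1, 7 without the trend, 196 with array weights, 1 with only the groups compared, 7 with the contradicting arrays by tissue description, and 3 to 17 without 1 array. For torpedo meristem, 35 became 13 with quantile normalization, 60 with a pseudocount of 50, 572 with array weights, 70 with only the groups compared, 16 without arrays of low correlation, and 0 to 1471 without 1 array. For heart minus globular, 15 became 43 with array weights, 5 with only the groups compared, 26 without arrays of low correlation, and 14 to 50 without 1 array. For torpedo minus heart, 264 became 153 with quantile normalization, 532 with a pseudocount of 1, 2486 with array weights, 162 without arrays of low correlation, and 72 to 853 without 1 array. The causes were not tested.

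Scaling moved the split of calls. For torpedo meristem it was 24 higher and 11 lower, against 6 and 7 with quantile normalization and 9 and 25 with median centring. For heart minus globular it was 2 and 13, against 6 and 13 and 4 and 12 under the same settings. In torpedo cotyledon minus root it was 2 and 0, against 2 and 2 with quantile normalization, and for torpedo minus heart 180 and 84, against 294 and 59 with median centring, 118 and 35 with quantile normalization, 173 and 21 with a pseudocount of 50, 227 and 305 with a pseudocount of 1, 1038 and 1448 with array weights, and 394 and 459 without torpedo basal 5. Same-numbered arrays had correlations of deviations of 0.07 to 0.38 in the heart stage and -0.09 to 0.09 elsewhere, which did not meet the criterion for pairing (over 0.1 in every pair) in any comparison. The replicate block gave 1 call in torpedo cotyledon minus root and 9 in torpedo apical minus basal, and could not be fitted for torpedo meristem and torpedo minus heart, whose groups share no numbers. Leaving out arrays of low correlation was not run for torpedo cotyledon minus root, which loses both root arrays. Dim signal limits differences of probe sets under 50.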

Other observations

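The array titled torpedo root 2, whose tissue description names the cotyledon, held 45.7 for rps4, 9.9 for rps19 and 155.4 for matK. These values lie among those of the torpedo cotyledon and root arrays for rps4 and rps19, and the matK value lies between the highest torpedo root array (150.6) and the lowest torpedo cotyledon array (2307). Neither this array nor the array titled torpedo cotyledon 2 entered a group.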
